A study of Zea mays with 448 samples.

Results

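The 200 genes described here had the largest excess of ear over leaf and stem expression in maize-teosinte F1 hybrids. They were taken from 14009 genes with 500 or more ear reads, out of 53921 gene models with a segregating site. Genes were ranked by the smaller of log2 ear over leaf and log2 ear over stem, in CPM (counts scaled to the tissue total) with 1 added. Reads of both alleles were summed over F1 libraries whose reads were 45 to 55% maize, in crosses with such libraries in all 3 tissues. The genes were chosen by these ear, leaf and stem levels of the F1s, which are therefore given without a test. The allele split of the F1s and the levels in the inbred parents played no part in the choice and were tested.

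RNA was sequenced from 6 maize inbreds (B73, CML103, Ki3, Mo17, Oh43 and W22), 9 teosinte inbreds (TIL01, TIL03, TIL05, TIL09, TIL10, TIL11, TIL14, TIL15 and TIL25) and F1 crosses between them, with no treatment named in the labels. Leaf and stem came from seedlings, the stem with its shoot apical meristem, and ears were immature, at the first appearance of silks. An ear sample of maize or of an F1 was 1 ear, whereas teosinte ears of a plant were pooled. Of 180 F1 libraries, 165 in 28 crosses met the rule (58 ear, 54 leaf and 53 stem), and 11 were outside the limits of 45 and 55%. The parents gave 88 libraries. In F1 libraries the reads at segregating sites numbered 814482 to 2684960 for ear, 1060511 to 2996829 for leaf and 1272475 to 3178117 for stem. In the parents they ran from 585765 to 4278711. Replicates are labelled as biological, but both ear libraries of Oh43xTIL10 carry replicate number 1 and may be of the same sample. Libraries of a cross were summed before the allele tests, so that this cross counted once there. Unless libraries are named as the units, the p-values given below measure the spread between crosses or between inbreds. The 28 crosses shared their parents, with up to 7 crosses to 1 inbred (B73 and Oh43), and are not fully independent. The p-values of the allele tests and the counts of crosses do not allow for this. Sequencing pools held 1 tissue each except pool 6 of the F1s, so that pool and tissue cannot be told apart elsewhere. A lower level can mean fewer cells of a type or less RNA per cell, and these cannot be told apart in bulk tissue.

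The maize ear is a female inflorescence whose meristems give rise to spikelets and then to florets. MADS-box transcription factors specify the organs of the floret, and in the usual scheme A-, B-, C- and E-class proteins act in combination. Other regulators of the ear act earlier: TEOSINTE BRANCHED1 represses the outgrowth of axillary buds, SBP-box genes limit bract and branch growth, and CLAVATA-type receptors restrict meristem size.

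Reads at the 200 genes made up 1.62% of an ear F1 library (median, range 1.26 to 2.17%, 58 libraries), 0.141% of a leaf library (0.0772 to 0.404%, 54 libraries) and 0.392% of a stem library (0.254 to 0.607%, 53 libraries). No ear library overlapped a leaf or stem library. Within pool 6, where the 3 tissues were sequenced together, 5 ear libraries had 1.32 to 1.82%, 5 leaf libraries 0.181 to 0.325% and 4 stem libraries 0.296 to 0.465%. The library labelled ear of Oh43xTIL01 had 1.32% and the library labelled stem of Oh43xTIL11 had 0.296%. Both were inside the range of the labelled tissue over all F1 libraries. The value of 0.296% was also inside the leaf range, so it cannot tell stem from leaf.

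**Figure D1:**
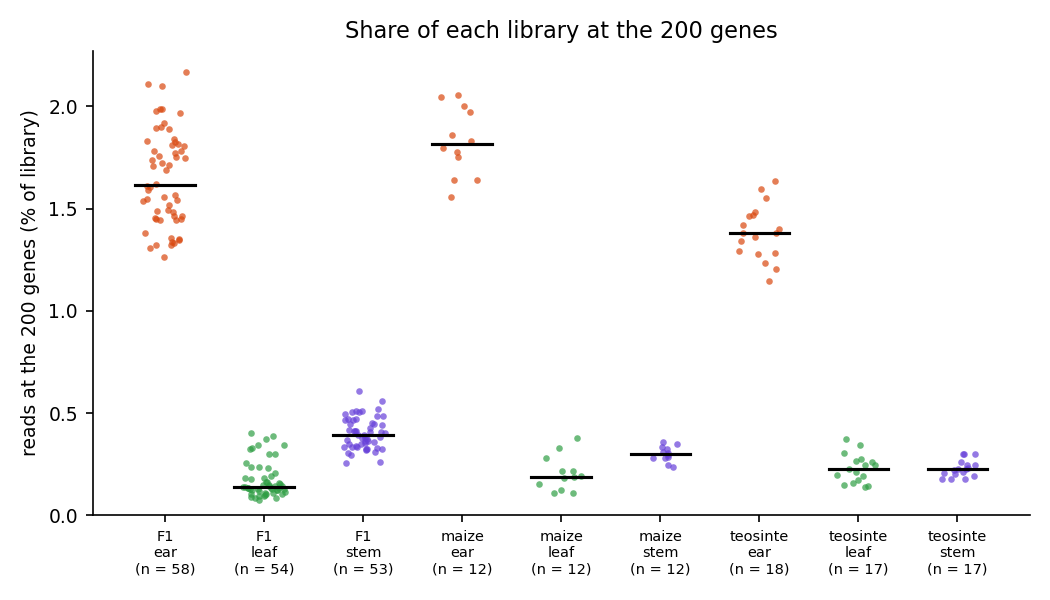
Percent of the reads of each library that lie at the 200 genes, for F1 crosses, maize inbreds and teosinte inbreds in ear, leaf and stem, with 1 point per library and a line at the median. Ear F1 libraries lay between 1.26 and 2.17%, and all leaf and stem F1 libraries lay at or below 0.607%.

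The smaller of the 2 log2 ratios ran from 6.59 down to 1.52 over the 200 genes, with a median of 1.87, against a median of 0.09 over the 14009 genes. It was 3 or more in 28 genes. For 171 of the 200 the stem was the closer tissue. The median log2 ratio was 2.85 over leaf and 1.96 over stem. The last genes inside the limit were GRMZM2G148773 (1.52), GRMZM2G406651 (1.52) and GRMZM2G091243 (1.52), and the first outside were akh2 (1.52), GRMZM2G414460 (1.52) and GRMZM5G843748 (1.52), so the limit falls in a continuum. Each gene had 554 to 142966 ear reads (median 2540 over the 28 crosses) at 2 to 94 sites, and had sites in 3 to 28 crosses (median 24). The genes lay on 10 chromosomes, from 12 on chromosome 6 to 38 on chromosome 1. A RefSeq entry was matched by identifier for 110 of the 200 and for 10159 of the 14009, so many of the genes carry an identifier only.

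**Figure D2:**
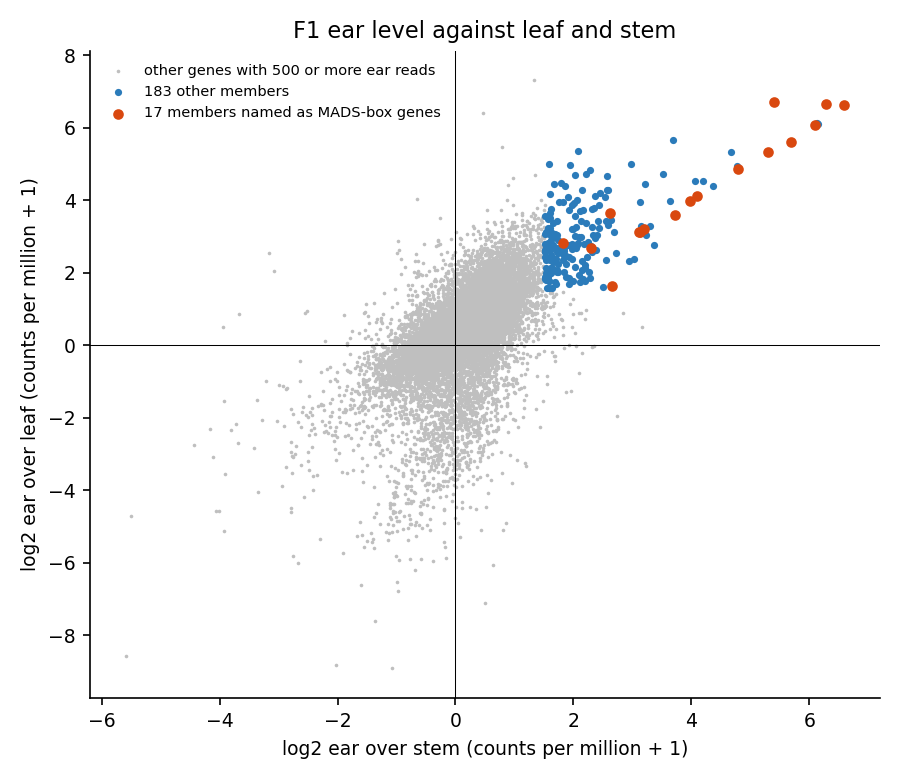
Log2 ear over stem (x axis) against log2 ear over leaf (y axis) in F1s, in CPM with 1 added, with 1 point per gene. The 200 genes form the upper right corner, from 1.52 upward on both axes, and 17 of them are named as MADS-box genes and reach 6.59.

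MADS-box genes led the ranking. By name in RefSeq, a grouping made after the values were seen, 17 of the 25 MADS-box genes with 500 or more ear reads were among the 200, and 13 of the first 30 genes were MADS-box genes. For SBP-box names the count was 2 of 11, for YABBY 1 of 3, for AP2 or ERF 1 of 9, for TCP 1 of 6, for bHLH 1 of 15, for ARF 1 of 16, for MYB 0 of 12 and for NAC 0 of 7. MADS-box genes with 500 or more ear reads that fell outside the 200 included si1, a B-class gene, zmm2 and zmm19.

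The gene with the largest excess was m28, also listed as MADS67 (GRMZM2G147716, chromosome 7, sites 164411699 to 164417298 of B73 AGPv2). Its level in 24 crosses was 59.8 to 406 CPM in ear (median 255), 0 to 12.2 in leaf (median 0.525) and 0 to 14.9 in stem (median 0.124). Ear was above both other tissues in all 24 crosses. In zmm24 (GRMZM2G087095, chromosome 1, sites 277310694 to 277348314), an E-class gene, the ear had 39.4 to 229 CPM in 22 crosses (median 109), the leaf at most 0.622 and the stem at most 3.08. The neighbouring m4 (GRMZM2G032339, sites 277151497 to 277231761) lay 78.9 kb before it and had 1.09 to 57 CPM in ear (median 25.8, 11 crosses), at most 0.322 in leaf and 0 in stem. Ear was the highest tissue in every cross of both genes.

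Genes of the A, B, C and E classes of floral organ identity were present. The A-class gene zap1 (GRMZM2G148693) had 0 to 215 CPM in ear (median 67.1, 24 crosses), at most 0.621 in leaf and at most 0.185 in stem. Ear was above both other tissues in 20 of the 24 crosses. For the E-class genes the median ear level was 75.4 CPM in zmm14 (GRMZM2G102161, also zmm8), 107 in zmm6 (GRMZM2G159397, also zmm7), 68.4 in zmm27 (GRMZM2G129034) and 38.1 in zmm31 (GRMZM2G071620). Of these only zmm6 passed 3 CPM in any leaf or stem cross total, with up to 21.3 CPM in stem. The C-class gene zag1 (GRMZM2G052890) had 0.33 to 51.6 CPM in ear (median 25.1, 20 crosses), against at most 2.42 in leaf and 2.73 in stem. The ovule gene zag2 (GRMZM2G160687) had 0 to 135 CPM in ear (median 12.1, 20 crosses) and at most 0.665 elsewhere. The AGL6-type gene zag3, known by the mutant bearded-ear (GRMZM2G160565), had 9.55 to 49.2 CPM in ear (median 16.2, 17 crosses), 0 in leaf and at most 0.185 in stem.

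The B-class genes and the SOC1-like genes lay lower in the ranking. For zmm16 (GRMZM2G110153, known by the mutant sterile tassel silky ear1), the ear had 31 to 99.2 CPM (median 73.9, 16 crosses), the stem 3.29 to 24.1 and the leaf 0.669 to 15.5. Another B-class gene, zmm29 (GRMZM2G152862), was low, with 0 to 46.2 CPM in ear and a median of 2.56 over 27 crosses. For m5, listed in RefSeq as SOC1 (GRMZM2G171365), the ear had 0 to 71.5 CPM (median 18.5, 21 crosses), the leaf 0 to 10.9 and the stem 0.242 to 26.5, and ear was highest in 18 of the 21 crosses. For zagl1 (GRMZM2G026223) the medians over 17 crosses were 72.5 CPM (ear), 18.6 (leaf) and 9.06 (stem), and ear was highest in 16 crosses. The range of ear overlapped those of both leaf and stem in m5 and in zagl1.

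Of the 44 identifiers matched for a list of genes of inflorescence meristems and branching, 17 had 500 or more ear reads and 6 were among the 200. Of these, tb1 (AC233950.1_FG002, chromosome 1, sites 265746677 to 265747682), a TCP gene that represses branching, had 1.25 to 103 CPM in ear (median 18, 17 crosses), 0 to 30.8 in stem (median 2.22) and at most 0.621 in leaf. The YABBY gene zyb9 (GRMZM2G074543) had a median of 13.7 CPM in ear against 1.1 in stem and 0 in leaf over 10 crosses. For an1 (GRMZM2G081554), which encodes an enzyme of gibberellin synthesis, the medians over 28 crosses were 96.8 CPM in ear, 19.7 in leaf and 24.6 in stem. For fea3 (GRMZM2G166524), a receptor that restricts the ear meristem, they were 54.5, 6.31 and 8.14. For ub2 (GRMZM2G160917), an SBP-box gene, they were 21.1, 2.11 and 4.63 over 14 crosses. Ear was the highest tissue in every cross of the genes named here.

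Other genes with known names had high levels. Of the next 4, ERECTA, ARF13 and PIN1d were picked after their values were seen, and ae1 also has one of the larger called allele ratios. ERECTA (GRMZM5G809695), named for the Arabidopsis receptor kinase of inflorescence growth, had a median of 1423 CPM in ear, 69.4 in leaf and 449 in stem over 28 crosses. ARF13 (GRMZM2G378580), an auxin response factor, had 1222, 185 and 363 CPM in the same order. The auxin transporter PIN1d (GRMZM2G171702) had 67.7, 3.96 and 15.3 CPM over 10 crosses, and ae1 (GRMZM2G032628), a starch branching enzyme, had 82, 2.8 and 22 CPM over 27 crosses. Ear was the highest tissue in all crosses of these 4 genes. In the first 10 of the ranking, sbp29 (GRMZM2G067624), an SBP-box gene, had 7.82 to 1356 CPM in ear (median 222, 18 crosses) and at most 29.7 in leaf and 14.9 in stem. GRMZM2G072582 had 5.37 to 204 CPM in ear (median 46.3, 26 crosses), 0 in every stem total and at most 0.579 in leaf. GRMZM2G361518 had 0 to 101 CPM in ear (median 36.4, 21 crosses), at most 1.27 in leaf and at most 0.993 in stem.

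The other fixed lists held none of the 200 genes. None of 7 photosynthesis genes, 3 anther and pollen genes, 2 kernel storage genes and 2 lignin genes with 500 or more ear reads was among them. The summed level of the photosynthesis list, of which 14 identifiers had sites, was 197 CPM in ear (median, range 92.8 to 441), 213 in stem (94.2 to 784) and 13746 in leaf (2125 to 81941).

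The inbred parents are libraries that the choice did not use, and they were asked whether the same genes were highest in ear there. With edgeR's quasi-likelihood test, the inbred as a block and Benjamini-Hochberg adjusted p under 0.05 over 15943 genes, a gene was called where ear was above both leaf and stem. This held for 3654 genes, 22.9% of those tested. Of the 200 genes, 159 passed the filter on low counts and 141 of them were called. Many passed only through their ear counts, and such a gene had to differ. Without the filter, where all 200 were tested, 174 were called, against a background of 13.7% of 29553 genes. Among the 93 that would have passed without the ear libraries, 83 were called (89.2%), against 22.3% of 14406 genes. The median log2 ratio of the 200 without the filter was 2.80 for ear over leaf and 2.67 for ear over stem, against 0.04 and -0.04 over all genes tested.

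All 17 MADS-box genes were called in the parents without the filter, where the background was 13.7% of 29553 genes. Their median log2 ratio was 7.18 over leaf and 7.18 over stem. With the filter 9 of the 17 were tested and 9 called. In m28 the parents' ear was 5.51 ± 0.47 (SE) log2 units above leaf and 5.49 ± 0.47 above stem (edgeR adjusted p = 5.9e-12 and 8.6e-12), and ear was the highest tissue in 15 of 15 inbreds. In zmm24 the differences were 9.95 ± 0.33 and 7.86 ± 0.27 (edgeR adjusted p = 1.4e-21 and 5.1e-21), and ear was highest in 15 of 15 inbreds. In tb1 they were 7.48 ± 0.58 and 3.60 ± 0.41 (edgeR adjusted p = 3.4e-12 and 9.0e-09), with ear highest in 13 of 13 inbreds. The highest level of an inbred was 0.364 CPM in leaf and 1.72 in stem for zmm24, and 1.09 and 5.09 for tb1. Genes this low outside ear can enter the test through their ear counts alone, and then had to differ.

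The genes that were not called failed mainly against the stem. Of the 18 that passed the filter and were not called, 17 were above leaf, where all genes tested gave 36.7% above leaf and 32.6% above stem. In 2 genes ear was below stem in the parents, where the background was 35% of all genes. GRMZM2G412073, on chromosome 3, had 18.3 CPM in F1 ear and 2.22 in F1 stem, but in the parents the log2 ratio of ear over stem was -1.20 ± 0.36 (edgeR adjusted p = 0.0063). GRMZM2G097683 had 23.01 CPM in F1 ear and 6.58 in F1 stem, and log2 -0.51 ± 0.23 for ear over stem in the parents (edgeR adjusted p = 0.045). Without the filter the latter did not pass (log2 -0.50, adjusted p = 0.069), whereas GRMZM2G456217 was below stem there (log2 -1.79, adjusted p = 0.045). Some genes described below for their alleles were also not called without the filter. Ear was highest in 8 of 15 inbreds for GRMZM2G047347 and 3 of 11 for GRMZM2G512292. It was highest in 8 of 13 for GRMZM5G872680 and 4 of 10 for GRMZM5G899202.

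Stem was above leaf for 171 of the 200 genes in the F1s (85.5%) and for 119 in the parents (59.5%). Over the 14009 genes the shares were 71.6% and 53.4%, so that the larger set shifted in the same direction. ERECTA had 449 CPM in F1 stem and 69.4 in F1 leaf, whereas in maize inbreds its median was 23.4 CPM in stem and 148 in leaf, and in teosinte inbreds 41.1 and 253. In fea3 the parents' ear was 5.12 ± 0.34 log2 units above stem but 0.58 ± 0.25 above leaf (edgeR adjusted p = 2.0e-14 and 0.036), and the call against leaf was lost without the filter (adjusted p = 0.051). In the parents the median level of fea3 in stem was 0.407 CPM in maize and 0.430 in teosinte inbreds.

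In the F1s both alleles of a gene share a nucleus, so their reads compare the maize and the teosinte copy in the same cells. Only perfect alignments were counted, and the paper holds that its method probably leaves some alignment bias toward maize. The paper also compared crosses of B73, its reference line, with crosses of the other maize inbreds. Among its genes with consistent allele differences, it found no significantly greater excess toward maize in the B73 crosses. The part of alignment bias in the ratios given here was not tested. Of 17639 genes with 100 or more ear reads, edgeR's quasi-likelihood test with the cross as a block called 1226 (6.95%) toward maize and 740 (4.2%) toward teosinte. All 200 genes were tested, and 22 were called toward maize and 9 toward teosinte. Their median log2 maize over teosinte ratio was 0.05, against 0.03 over all genes tested, and 111 of 200 were above 0. The lower and upper quartiles were -0.20 and 0.30.

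For 13 of the 17 MADS-box genes and 138 of the 183 other genes the ratio was within 0.5 log2 units of 0. Of the 17, 1 was called toward maize and 0 toward teosinte, with log2 ratios from -0.91 to 1.03 and a median of 0.14. The 1 called was zagl1, with 2222 maize and 1524 teosinte reads and a log2 ratio of 0.56 ± 0.10 (edgeR adjusted p = 0.00065). The maize allele was higher in 16 of 17 crosses with 20 or more reads. In m28 the log2 ratio was 0.16 ± 0.06 (adjusted p = 0.071), with maize higher in 18 of 24 crosses. For zmm24 it was 0.02 ± 0.08 (adjusted p = 0.92), with 13 of 22. In zmm31 the teosinte allele was higher in 7 of 8 crosses, with a log2 ratio of -0.91 ± 0.33 (adjusted p = 0.11), which did not pass. With each library as a pair of alleles, zmm31 (log2 -0.85, edgeR adjusted p = 0.024), m28 (log2 0.15, adjusted p = 0.0053), zmm6 (log2 0.18, adjusted p = 0.0036) and m5 (log2 0.67, adjusted p = 0.024) passed. That setting counts libraries of 1 cross as separate, so its p-values measure the spread between libraries and not between crosses.

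Among the branching genes, tb1 and an1 passed the test toward maize. In tb1 the maize allele had 1051 reads and the teosinte allele 697, and the log2 ratio was 0.68 ± 0.18 (edgeR adjusted p = 0.017). Maize was higher in 12 and teosinte in 4 of 16 crosses. According to the paper, the teosinte inbreds TIL03 and TIL09 have the maize haplotype of this gene, and their crosses were kept in the test. The call was lost without replicate 2 (log2 0.54, adjusted p = 0.11) and without the B73 crosses (log2 0.59, adjusted p = 0.079). In an1 the alleles had 5370 and 4464 reads, a log2 ratio of 0.32 ± 0.08 (edgeR adjusted p = 0.010), and maize was higher in 21 of 27 crosses. That call was lost without replicate 2 (log2 0.26, adjusted p = 0.095) and on the deepest site only (log2 0.15, adjusted p = 0.30). For ub2 the ratio was 0.94 ± 0.36 (adjusted p = 0.11), with maize higher in 10 of 13 crosses, and for fea3 it was -0.07 ± 0.12 (adjusted p = 0.77). With each library as a pair of alleles ub2 passed (log2 0.92, edgeR adjusted p = 0.0044), but libraries of 1 cross again counted as separate.

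**Figure D3:**
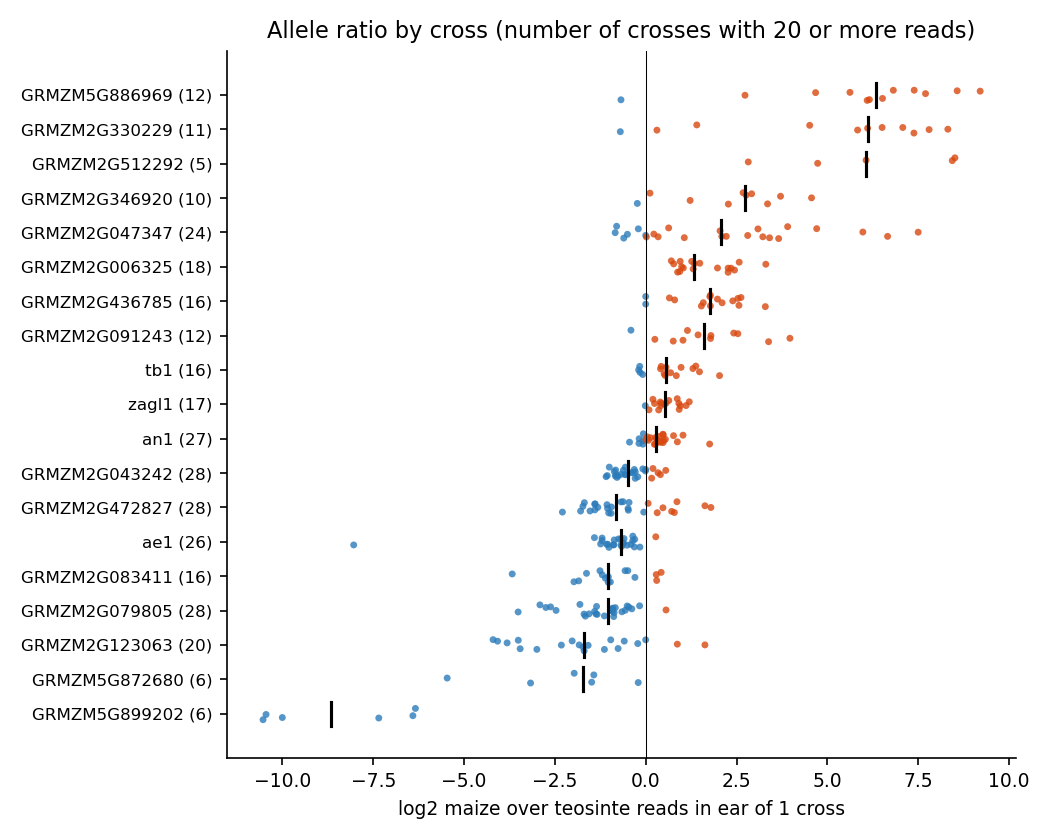
Log2 maize over teosinte reads in ear, with 1 point per cross of 20 or more reads and a line at the median, for the called genes with the largest ratios and for tb1, zagl1 and an1. Orange points have more maize reads and blue points do not, and GRMZM2G006325 (18 crosses) and GRMZM2G512292 (5 crosses) have orange points only.

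Several of the largest ratios toward maize belonged to genes known by identifier only. GRMZM5G886969 had 3083 maize and 189 teosinte reads, a log2 ratio of 5.51 ± 0.75 (edgeR adjusted p = 0.00024), and maize was higher in 11 of 12 crosses. In the exception, B73xTIL05, the teosinte allele had 135 and the maize allele 84 reads, which is 135 of the 189 teosinte reads of this gene. GRMZM2G330229 had 1531 and 673 reads and a log2 ratio of 3.89 ± 0.68 (edgeR adjusted p = 0.00072). Its teosinte allele had 0 reads in 7 of the 11 crosses with 20 or more reads. In the crosses of TIL25 with B73 and Oh43 it had 536 and 101 reads, against 664 and 62 of the maize allele. DESeq2 did not call either gene (adjusted p = 0.47 and 0.063). GRMZM2G346920 had 728 and 136 reads, a log2 ratio of 2.28 ± 0.45 (edgeR adjusted p = 0.0062; DESeq2 adjusted p = 0.90), with maize higher in 9 of 10 crosses.

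In GRMZM2G006325 the maize allele was higher in all 18 crosses with 20 or more reads, with 932 and 366 reads and a log2 ratio of 1.52 ± 0.17 (edgeR adjusted p = 2.9e-06). It was the only one of 174 genes with 10 or more such crosses in which every cross pointed the same way. Among all 12964 such genes of the larger set, 0.471% had maize higher in every cross and 0.316% teosinte. GRMZM2G436785 had 602 and 191 reads, a log2 ratio of 1.46 ± 0.24 (edgeR adjusted p = 0.0001), and maize was higher in 14 of 16 crosses. For GRMZM2G091243 the ratio was 1.21 ± 0.31 (edgeR adjusted p = 0.013), and for GRMZM2G512292, with 20 or more reads in 5 crosses, it was 3.57 ± 0.96 (edgeR adjusted p = 0.028; DESeq2 adjusted p = 0.99). The call for GRMZM2G091243 was lost on the deepest site (log2 0.76, adjusted p = 0.15) and without the B73 crosses (log2 1.27, adjusted p = 0.054). That for GRMZM2G512292 was lost on the deepest site (log2 2.82, adjusted p = 0.066), without replicate 2 (log2 3.28, adjusted p = 0.071) and without B73xTIL05 (log2 3.02, adjusted p = 0.061).

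Toward teosinte, ae1 was the called gene with a known product. Its alleles had 3111 maize and 5043 teosinte reads, a log2 ratio of -0.78 ± 0.17 (edgeR adjusted p = 0.0030), and teosinte was higher in 25 of 26 crosses. GRMZM2G079805 had 2838 and 6385 reads, a log2 ratio of -1.22 ± 0.17 (edgeR adjusted p = 6.6e-06), and teosinte was higher in 27 of 28 crosses. In GRMZM2G123063 the ratio was -1.66 ± 0.32 (edgeR adjusted p = 0.0010), with teosinte higher in 17 of 20 crosses, and in GRMZM2G083411 it was -1.06 ± 0.19 (edgeR adjusted p = 0.00025), with 13 of 16. GRMZM2G043242 had a smaller ratio of -0.42 ± 0.09 (edgeR adjusted p = 0.0015), with 22 of 28. GRMZM5G872680 had -2.14 ± 0.42 (edgeR adjusted p = 0.0026; DESeq2 adjusted p = 0.16) from 6 crosses.

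In GRMZM5G899202 the reads came almost wholly from the teosinte allele, with 3 maize and 3518 teosinte reads. The 6 crosses with 20 or more reads were the crosses of TIL09 and TIL14, and the largest had 2100 teosinte reads and 1 maize read (B73xTIL14). The log2 ratio was -8.47 ± 0.92 (edgeR adjusted p = 0.00023). The 4 maize inbreds with sites in this gene had 0 CPM in ear, leaf and stem. DESeq2 did not call the F1 ratio (log2 -0.88, adjusted p = 0.99998).

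By cross, the median log2 ratio of the genes with 20 or more reads (100 to 165 of the 200) ran from -0.11 in W22xTIL14 to 0.30 in B73xTIL05 and was above 0 in 15 of 28 crosses. It was above the median of the larger set of genes in 13 of 28 crosses. B73xTIL05 stood apart, with 73.3% of its genes higher for maize. The larger set leaned the same way in that cross (61.2%). The share of genes whose alleles differed by more than 1 log2 unit was 16 to 29.8% by cross (median 21.7%), against 10.9 to 17.1% (median 13.1%) in the larger set, and was the greater of the 2 in all 28 crosses. The read depth of these sets was not matched, and its part in the share was not tested.

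Variation of the ratio with the parents of the cross was tested in a linear model weighted by depth, without the crosses of TIL05, TIL10 and TIL15, for genes with 15 or more crosses of 10 or more reads. The maize parent passed an adjusted p under 0.05 in 2104 of 11208 genes (18.8%) and the teosinte parent in 3326 (29.7%). Of the 140 genes tested here the maize parent passed in 37 and the teosinte parent in 62. With 1 replicate left out in turn the counts were 8 to 18 and 25 to 27, and over all genes 814 to 1127 and 1289 to 1773. None of 8 MADS-box genes tested passed for the maize parent and 2 passed for the teosinte parent.

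GRMZM2G074094 varied with both parents (adjusted p = 3.7e-05 for maize, 7.4e-06 for teosinte; 22 crosses). The maize allele was higher in all 3 crosses of CML103 (log2 1.30 to 1.85) and in 0 of 4 crosses of B73 (log2 -2.90 to -0.38). It was higher in all 4 crosses of TIL03 and all 4 of TIL11, and in 0 of 3 of TIL01. GRMZM2G152408 also varied with both parents (adjusted p = 0.0012 and 1.6e-05). Its median log2 ratio was 0.93 in 3 crosses of TIL25 and -0.96 in 5 crosses of TIL14.

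In GRMZM2G047347 the difference ran with the teosinte parent (adjusted p = 3.4e-05; maize parent 0.60). With TIL11 the maize allele had 426 and the teosinte allele 8 reads, and the log2 ratio was 3.66 to 7.50 over 5 crosses. With TIL09 the ratio was 0 to 0.34 over 4 crosses. Over all crosses this gene was called toward maize (log2 1.74 ± 0.41, edgeR adjusted p = 0.0046). GRMZM2G472827 (teosinte parent, adjusted p = 1.8e-05) had log2 0.71 to 1.79 in 3 crosses of TIL01 and -2.29 to -1.32 in 4 crosses of TIL09. GRMZM2G017187 (adjusted p = 3.2e-06) had 0.53 to 0.78 in 3 crosses of TIL01, 0.59 to 0.73 in 3 of TIL25 and -0.39 to -0.09 in 5 of TIL14.

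For the maize parent, GRMZM2G079805 (adjusted p = 0.00021) leaned toward teosinte most in the 7 crosses of B73 (median log2 -2.62) and least in the 2 of Mo17 (median -0.14). GRMZM2G417402 (adjusted p = 0.0013) leaned toward teosinte in all 4 crosses of Ki3 (log2 -6.44 to -1.89) and toward maize in 6 of 7 crosses of Oh43 (median 1.35). Over all crosses the log2 ratio of GRMZM2G417402 was -0.20 ± 0.37 (adjusted p = 0.81).

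Between the parents themselves, ear levels of 6 maize and 9 teosinte inbreds were compared by edgeR's quasi-likelihood test, with an offset for the sites counted in each inbred. The offset was taken from the mean ear F1 depth at those sites. Over 15219 genes tested, 199 (1.31%) were higher in maize and 509 (3.34%) in teosinte. Of the 187 genes of this set that were tested, 21 were higher in maize and 2 in teosinte, whereas over all genes tested more were higher in teosinte. The median log2 maize over teosinte ratio was 0.24 against -0.004 over all genes tested, and 66.3% of the 187 were above 0, against 49.7%. The share of an ear library at the 200 genes was 1.83 ± 0.17% (SD, n = 6 inbreds) in maize and 1.38 ± 0.12% (SD, n = 9) in teosinte. It was 1.60 to 2.03% over the maize inbreds and 1.24 to 1.62% over the teosinte inbreds, and only Ki3 and TIL03 overlapped. This share was not adjusted for sites. Of the 200 genes, 164 to 199 had reads in a maize ear library and 150 to 182 in a teosinte ear library. Maize ears were also single and teosinte ears pooled. The part of the sites and of the pooling in the difference was not tested. Each inbred was counted at the sites of its own crosses. With an offset from the number of sites, 5 genes were called toward maize and 1 toward teosinte (51 and 183 over all genes). Without replicate 1 there were 10 toward maize (91 over all genes).

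**Figure D4:**
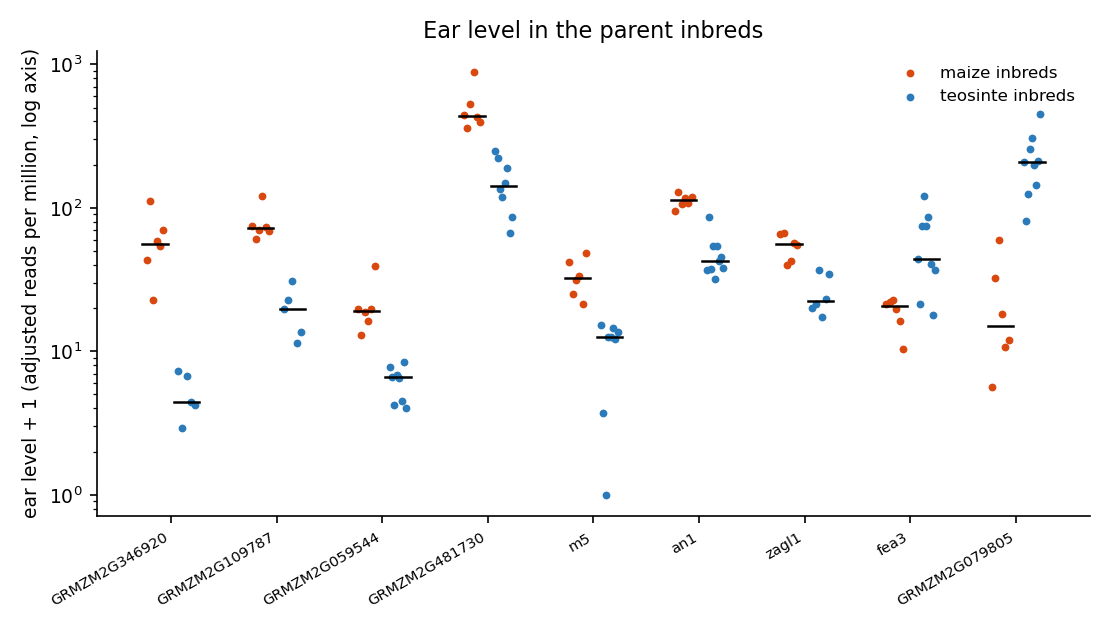
Ear level of 9 genes in each maize (orange) and teosinte (blue) inbred, as CPM adjusted for the sites counted, with 1 added, on a log axis, with lines at the medians. In GRMZM2G346920 the maize inbreds lay between 21.9 and 111 before the 1 was added and the teosinte inbreds between 1.94 and 6.28.

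Among the genes higher in maize inbreds, GRMZM2G346920 had an ear level of 21.9 to 111 adjusted CPM in 6 maize inbreds (median 55.3) and 1.94 to 6.28 in 5 teosinte inbreds (median 3.43). The log2 ratio was 3.82 ± 0.46 (edgeR adjusted p = 0.00057), and the groups did not overlap. With the offset from the number of sites this call was lost (log2 2.55, adjusted p = 0.21). A pair of neighbours on chromosome 5, GRMZM2G109787 (sites 205320485 to 205320934) and GRMZM2G481730 (sites 205329136 to 205332805), lay 8.20 kb apart. GRMZM2G481730 had 357 to 885 in maize (median 436) and 65.3 to 247 in teosinte (median 141), a log2 ratio of 1.75 ± 0.29 (edgeR adjusted p = 0.0022). GRMZM2G109787 had 59.9 to 120 in maize and 10.4 to 29.9 in 5 teosinte inbreds, a log2 ratio of 2.05 ± 0.30 (edgeR adjusted p = 0.0018). Neither overlapped between the groups. In F1s their maize alleles were higher by log2 0.42 ± 0.09 and 0.49 ± 0.10 (edgeR adjusted p = 0.0024 and 0.0022). On the deepest site the call for GRMZM2G481730 was lost (log2 0.25, adjusted p = 0.18). GRMZM2G059544 had 11.9 to 38.1 in maize and 3.04 to 7.49 in teosinte (log2 1.98 ± 0.30, edgeR adjusted p = 0.0014), and its F1 ratio was 0.20 ± 0.18 (adjusted p = 0.54). In the parents its ear was not called above stem (log2 0.20 without the filter, edgeR adjusted p = 0.72). Ear was its highest tissue in 6 of 6 maize but 3 of 8 teosinte inbreds.

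Among the named regulators, m5 had 20.3 to 47.7 in maize inbreds and 0 to 14.2 in 8 teosinte inbreds (log2 1.65 ± 0.35, edgeR adjusted p = 0.013). Its median in teosinte, not adjusted for sites, was 10.9 CPM in ear and 11.2 in stem. Ear was its highest tissue in 5 of 8 teosinte and 6 of 6 maize inbreds. The level of an1 was 93.7 to 127 in maize and 30.8 to 85.7 in teosinte (log2 1.24 ± 0.19, edgeR adjusted p = 0.0012). For zagl1 it was 39 to 66 in maize and 16.4 to 35.9 in 6 teosinte inbreds (log2 1.12 ± 0.23, edgeR adjusted p = 0.014). The groups did not overlap in any of these 3 genes. With the offset from the number of sites none of the 3 was called (adjusted p = 0.20, 0.14 and 0.20). In tb1 the level was 23.9 to 42.8 in 5 maize and 6.32 to 38 in 8 teosinte inbreds, and the log2 ratio of 0.99 ± 0.38 did not pass (adjusted p = 0.16). The groups overlapped in TIL03, at 38.0. The floral genes m28, zmm24, zag1 and zag2 had ratios of 0.09 ± 0.15, -0.45 ± 0.19, -0.02 ± 0.30 and -0.19 ± 0.36, none past the threshold (adjusted p = 0.82, 0.19, 0.99 and 0.84).

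The 2 genes higher in teosinte inbreds were GRMZM2G079805 and fea3. GRMZM2G079805 had 79.5 to 446 in teosinte (median 207) and 4.64 to 58.7 in maize (median 14.0), with no overlap and a log2 ratio of -3.31 ± 0.52 (edgeR adjusted p = 0.0015). In fea3 the teosinte level was 17.02 to 120 (median 43.2) and the maize level 9.35 to 21.7 (median 19.6), with a log2 ratio of -1.66 ± 0.38 (edgeR adjusted p = 0.018), and TIL03 and TIL15 lay within the maize range. The call for fea3 was lost without replicate 1 (log2 -1.76, adjusted p = 0.061) and with the offset from the number of sites (log2 -1.20, adjusted p = 0.12).

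**Figure D5:**
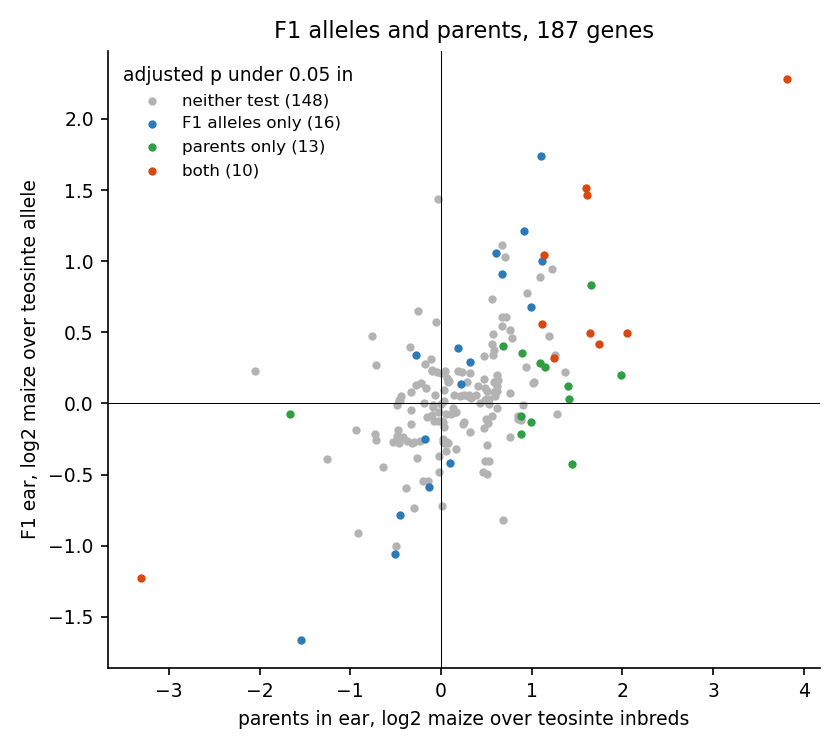
Log2 maize over teosinte ratio in ear of the parents (x axis) and of the F1 alleles (y axis) for 187 genes, coloured by the test that called them. The 10 genes called in both tests lie in the upper right and, for GRMZM2G079805, in the lower left.

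The F1 and parent reads came from separate libraries, but the offset of the parent test used the ear F1 depth at the sites. The 2 ratios are therefore not fully independent. Of the 187 genes, 9 were called toward maize in both tests, 1 toward teosinte in both, and 0 in opposite directions. A further 10 were called toward maize and 6 toward teosinte in F1s only, and 12 toward maize and 1 toward teosinte between parents only. A call in 1 test and not in the other does not show that the ratios differ, and the difference was not tested. Across these genes, which are not independent replicates, Pearson's r between the 2 ratios was 0.58 and Spearman's rho 0.51, against 0.51 and 0.45 over 15192 genes. The 21 genes higher in maize inbreds had F1 log2 ratios of -0.42 to 2.28 with a median of 0.35.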

How the data were processed

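The authors aligned reads with Bowtie to combined parent pseudo-transcriptomes, kept perfect alignments, and deposited counts of reads per allele at segregating sites (B73 AGPv2). The 448 samples are 180 F1 libraries of 2 lanes each and 88 parent libraries. Here each chromosome and position was used once, lanes were summed, and counts were summed per gene. Genes and lists were chosen with earlier results of these data known. Named genes were the first 10 by rank, 3 on each side of the limit, listed regulators among the 200, and the called genes with the largest allele ratios, parent ratios and parent effects. Tests used edgeR 4.0.16 (quasi-likelihood, TMM, filterByExpr for parents, 100 ear reads for alleles) with Benjamini-Hochberg adjustment, and DESeq2 1.42.0 as an alternative. In simulated counts 77.6% of 2-fold allele differences (17639 genes) and 29.9% of 2-fold parent differences (15219 genes) were recovered. Gene names came from RefSeq (Zm-B73-REFERENCE-NAM-5.0), used for names only. Planned groupings by product and promoter motif were not run, since the reference held names only. A withheld item is not reported here.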

Additional observations from a re-analysis of the deposited data

Results flagged for a closer look

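Ear levels of the named genes (site-adjusted CPM) were checked, on the log2 scale with 1 added, for an inbred far from the others of its group. Of 92 groups, 12 held one, and chance flags about 1 in 20 groups. Among teosinte inbreds TIL09 was low for sbp29 (10.45, next 60.63, 5 inbreds) and for ERECTA (428.2, next 819.3, 9 inbreds). TIL03 was low for GRMZM2G072582 (15.66, next 30.09, 9 inbreds), and TIL10 was at 0 for GRMZM2G436785 (next 1.73, 9 inbreds). TIL14 was at 0 for zap1 (next 10.28, 8 inbreds) and at 0.1689 for PIN1d (next 13.73, 5 inbreds). TIL01 was low for ARF13 (951.4, next 1314, 9 inbreds), and TIL11 for GRMZM2G152408 (19.17, next 33.22, 7 inbreds). Among maize inbreds Ki3 was high for zmm27 (73.59, next 41.12, 5 inbreds) and m4 (22.65, next 11.11, 5 inbreds) and low for GRMZM2G006325 (6.18, next 15.81, 6 inbreds). Mo17 was high for GRMZM2G109787 (119.7, next 73.87, 6 inbreds).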

How the results depend on the processing

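Of the 200 genes, 184 were shared with an added value of 0.1, 168 with a minimum of 100 ear reads, 197 with all F1 libraries, 156 on the deepest site only, 194 without the 2 pool 6 libraries, and 148 to 167 with 1 replicate left out. The 141 genes called in the parents (3654 of all genes) became 109 to 117 and 2906 to 3004 with 1 replicate left out. They were 154 and 3110 in maize only, and 111 and 2745 in teosinte only. The F1 calls toward maize (22 of the 200, 1226 of all genes) became 14 and 681 on the deepest site, 12 and 608 without the B73 crosses, 80 and 5468 with a binomial test, 8 and 408 at 0.005, and for all genes 700 to 879 with 1 replicate left out. Those toward teosinte (9 and 740) became 17 and 1271 with DESeq2, 62 and 4320 with the binomial test, and for all genes 461 without the B73 crosses and 258 at 0.005. With each library as a replicate block the F1 calls were 47 and 2810 toward maize and 28 and 1882 toward teosinte. That setting counts libraries of 1 cross as separate. Between parents the calls toward maize (21 and 199) became 5 and 51 with the offset from the number of sites, 45 and 970 with libraries as samples, 44 and 924 with the replicate block, 7 and 37 at 0.005, 10 to 15 and 91 to 154 with 1 replicate left out, and for all genes 489 with DESeq2. Those toward teosinte (2 and 509) became 6 and 981 with DESeq2 and 1 and 183 with the offset from the number of sites. They were 13 and 1408 with libraries as samples, 12 and 1362 with the replicate block, and 1 and 119 at 0.005. With 1 replicate left out they were 2 to 3 and 280 to 405, and with no filter 4 and 562. For the maize parent (37 and 2104) the counts were 23 and 1707 with 30 reads a cross and 25 and 1376 without weights. They were 8 to 18 and 814 to 1127 with 1 replicate left out. For the teosinte parent (62 and 3326) they were 41 and 2544 without weights, and 25 to 27 and 1289 to 1773 with 1 replicate left out. Without the cross B73xTIL05, chosen after seeing the data, 21 and 12 of the 200 were called toward maize and teosinte. Over all genes the counts were 1151 and 767. The causes were not tested. Replicate numbers do not pair the samples: deviations of ear and leaf of 1 inbred correlated at -0.0859 to 0.0743 (0 of 14 pairs over 0.1), ear and stem at -0.0632 to 0.0891 (0 of 14), leaf and stem at -0.482 to 0.243 (4 of 14), and ears of a maize and a teosinte inbred at -0.334 to 0.456 (3 of 54), and libraries of 1 inbred were summed in the tests between parents.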
